A study of Rattus norvegicus with 9 samples.

Results

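The kinin, angiotensin, endothelin and natriuretic peptide systems, which act on vessels, smooth muscle and neighbouring cells, were followed in cultured rat Sertoli cells, which nurse the germ cells inside the tubule, by their 10 genes Kng1, Kng2, Agtr2, Agtr1a, Ace, Edn1, Ednra, Ednrb, Nppc and Npr2. The probes were those whose gene name in the array files is a member: 13 of the 41012 probes of the array, carrying 9 of the 10 names. After names were brought to current RefSeq symbols, 15 probes stood for all 10 genes, and 14 of them passed the filter on dim signal. The genes were chosen by their age differences on these same arrays, so their levels and differences are given as a description, without a test. Sertoli cells came from the testes of rats aged 5, 12 or 60 days, with 3 single-colour arrays for each age. Every culture grew for 4 days with defined growth factors before oFSH (50 ng/ml) and testosterone (1e-07 M) were given in pulses over 11 h, so no culture without hormone is among them. The labels give no strain and no number of animals, and they do not say whether replicates came from separate animals or cultures. The spread between arrays may therefore be technical.

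Kininogens are secreted proteins from which kallikreins release the vasodilator bradykinin, and the rat has in addition T-kininogens, cysteine protease inhibitors made in the acute phase response. Angiotensin-converting enzyme, Ace, makes angiotensin II and degrades bradykinin, and angiotensin II acts through the receptors AT1 (Agtr1a) and AT2 (Agtr2). Endothelin-1 (Edn1) acts through the receptors ETA (Ednra) and ETB (Ednrb), and in the testis it contracts the peritubular myoid cells that surround the tubule. C-type natriuretic peptide (Nppc) acts through Npr2, a receptor that makes cyclic GMP.

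The names of the kininogen probes needed care. The 2 probes that the files call Kng1 carry the accession that RefSeq now gives to Kng2, T-kininogen, and no probe is called Kng2 in the files. Current Kng1 is read by a probe that the files call MGC108747 and describe as similar to a major acute phase protein, an old name of T-kininogen. Its sequence overlaps that of the first Kng2 probe over 58 bases, of which 54 are identical. The sequences are shown because they decide what the signals can tell apart, with capitals at the 4 aligned bases that differ.
Kng1: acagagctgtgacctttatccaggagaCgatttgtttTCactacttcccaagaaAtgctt
Kng2, first probe: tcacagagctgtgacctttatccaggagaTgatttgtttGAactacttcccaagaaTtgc
Kng2, second probe: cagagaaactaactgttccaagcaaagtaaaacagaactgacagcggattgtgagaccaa
Signals of the Kng1 probe and the first Kng2 probe cannot be assigned to a single gene, since the stretch they share is nearly the same in both transcripts. The second Kng2 probe lies elsewhere in the transcript, and whether it also reads the other kininogen transcripts was not tested. In rn4, the build of the replicate 3 files, the first and second Kng2 probes lie at chr11:80124373-80125403 and chr11:80127589-80127648, and the Kng1 probe lies at chr11:80015948-80017058. The spans of 1031 and 1111 bases are longer than the 60-base probes. No annotation of rn4 was used, so exons and untranslated parts are not stated.

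The kininogens were bright at 5 days and at background afterwards. Levels are given as log2 signal minus the array's own 75th percentile, so that 0 is the level of that percentile. In the order of replicates 1, 2 and 3, which holds throughout, the first Kng2 probe stood at 2.73, 2.45 and 2.38 at 5 days, at -6.52, -4.86 and -5.25 at 12 days, and at -6.93, -7.07 and -6.48 at 60 days. All 3 signals at 5 days were well above background, and none was at 12 or 60 days. The second Kng2 probe gave the same picture, with 2.16, 1.73 and 1.03 at 5 days and a highest level of -5.23 on the 6 later arrays. Kng1 stood at 2.42, 1.91 and 1.95 at 5 days and between -6.95 and -5.41 at the later ages. At 12 days the first Kng2 probe was at least 92.5-fold lower than at 5 days, the second at least 50.4-fold and the Kng1 probe at least 68.9-fold. Each of these folds is a bound on Agilent's processed signal, in which a signal of the dimmer age counts as no lower than the lowest signal well above background on its array. At 60 days the same bounds against 5 days were 139-fold, 75.6-fold and 104-fold. With normexp background correction and its offset of 50, the log2 differences between 12 and 5 days were smaller than these bounds, -3.56 for the first Kng2 probe and -3.16 for Kng1. Measured means of the first Kng2 probe were 2.52 ± 0.18 at 5 days, -5.54 ± 0.87 at 12 days and -6.83 ± 0.31 at 60 days (SD, n = 3), and those of Kng1 were 2.09 ± 0.28, -6.17 ± 0.66 and -6.59 ± 0.32. The second Kng2 probe averaged 1.64 ± 0.57, -6.18 ± 0.65 and -5.92 ± 0.98. Between 12 and 60 days no fold can be given for any of these probes, because both ages lay at background. In RNA of whole cultures, fewer cells that express a gene and less RNA per cell cannot be told apart.

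The K-kininogen gene Kng2l1, which the files call LOC25087, behaved differently. Its probe was not well above background on any of the 9 arrays, with levels between -6.96 and -5.38. Kng1, Kng2 and Kng2l1 follow each other as protein-coding genes in the GRCr8 RefSeq order of chromosome 11. The 4 protein-coding genes on either side of them were looked up after the kininogen values were known. St6gal1, a sialyltransferase, averaged 2.21 ± 0.21, 3.39 ± 0.37 and 3.77 ± 0.39 at 5, 12 and 60 days and rose by 1.55 ± 0.34 (SE) between 5 and 60 days (adjusted p = 0.0046, limma). Eif4a2, a translation factor, lay next to Kng1 in the order and averaged 5.21 ± 0.49, 6.04 ± 0.32 and 5.28 ± 0.09, with no contrast called. Ahsg, the fetuin gene, was not well above background at 5 or 12 days, was at 60 days on all 3 arrays, and rose by 3.08 ± 0.48 between 5 and 60 days (adjusted p = 0.000459), a difference that rests on background levels at 5 days. Hrg and Fetub were well above background on 1 of 3 arrays at each age. None of the 7 flanking genes with a probe was bright at 5 days and at background later, as the Kng1 and Kng2 probes were.

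**Figure D1:**
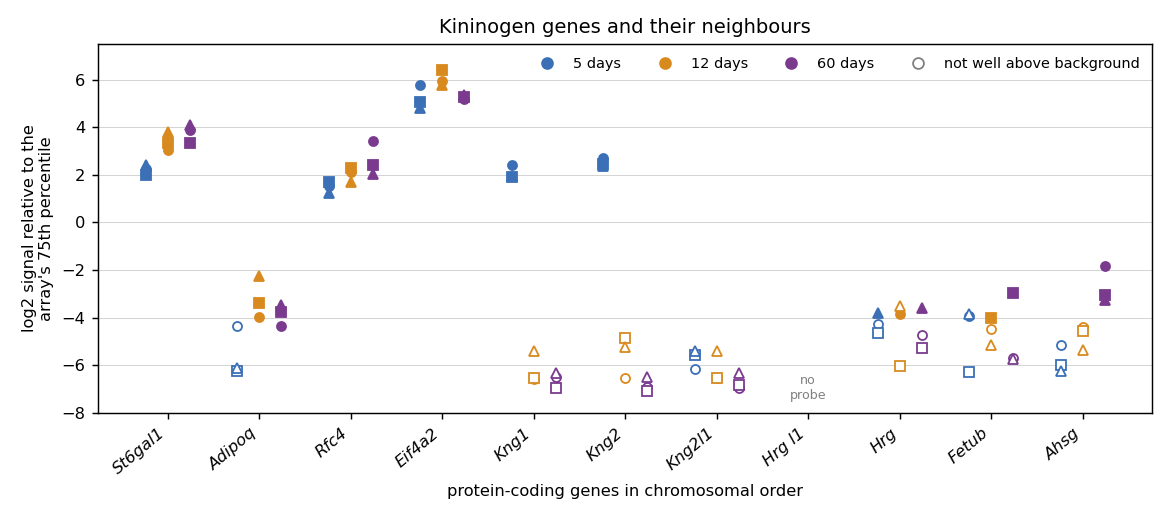
Log2 signal minus the array's 75th percentile (vertical axis) for the kininogen genes and the 4 protein-coding genes on either side in chromosomal order, with a point for each of the 9 arrays, coloured by age and open where not well above background; point shapes are replicates 1 (circle), 2 (square) and 3 (triangle). Kng1 and Kng2 lie above 1.9 on all 5-day arrays and below -4.8 on all others, while Kng2l1 is open throughout.

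The promoters of Kng1 and Kng2 are shown because the probes of both genes were bright at 5 days alone, with the limit that the Kng1 probe cannot be told apart from the first Kng2 probe. In the RefSeq sequences of GRCr8, the window from -250 to -1 of each annotated start was compared. Within these windows 95 bases could be aligned without a gap, and 94 of them were identical, with a capital at the base that differs. The block lies from -250 to -156 of the annotated Kng1 start (chr11:91340304-91340398, minus strand) and from -95 to -1 of the Kng2 start (chr11:91418375-91418469, plus strand). It begins at the edge of the Kng1 window and ends at the edge of the Kng2 window. Its length is thus set by the windows, and where the likeness ends was not looked up.
Kng1 promoter block: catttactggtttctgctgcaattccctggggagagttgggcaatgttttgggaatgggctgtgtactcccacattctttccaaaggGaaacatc
Kng2 promoter block: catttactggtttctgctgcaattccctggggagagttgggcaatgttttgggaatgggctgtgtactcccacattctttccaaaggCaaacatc
Among the 33469 promoters of the table, 1 other shared a run of 30 bases with the upstream window of Kng2, that of Kng2l1, whose probe was at background on all 9 arrays. Promoters of 9 of the 10 members were in the table, and Npr2 was not matched. Motif letters were searched in the same window of each promoter. The TATA box letters TATAAA, searched on the gene's strand, occurred at -48 in Nppc, -110 in Edn1 and -45 in Agtr1a, and in 8.06% of all promoters. The half-site TGACG of the cyclic AMP response element, searched on both strands, occurred in Kng2, Ednrb and Agtr1a and in 18.2% of all promoters, and the GATA letters AGATAA in Edn1 and in 10.3%. No match to TGANTCA (AP-1) or TTCNNNGAA (STAT) was found in the 9 windows, against 6.34% and 7.67% of all promoters. A match is a string of letters, not a shown binding site.

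Agtr2, the AT2 receptor gene, was also highest at 5 days. Its first probe stood at 2.69, 2.66 and 2.56 at 5 days, at -3.82, -3.71 and -3.99 at 12 days and at -6.86, -6.96 and -6.60 at 60 days, so the 3 ages did not overlap. The difference between 12 and 5 days was -6.47 ± 0.29 on the log2 scale (SE of the model of all 9 arrays), or 88.8-fold lower, and on the 3 slides it was -6.51, -6.37 and -6.55. At 12 days 2 of 3 arrays were well above background and at 60 days none, so the age means of -3.84 ± 0.14 and -6.81 ± 0.18 (SD, n = 3) give only a bound of at least 1.70-fold lower at 60 days. Against 5 days, with a mean of 2.63 ± 0.07, the level at 60 days was at least 151-fold lower. With normexp the differences of Agtr2 were -3.42 between 12 and 5 days, -0.49 between 60 and 12 days and -3.90 between 60 and 5 days. The second Agtr2 probe lies 2281 bases away on the unplaced rn4 sequence and is printed on each array in 10 spots, a design Agilent uses for a subset of probes.
Agtr2, second probe: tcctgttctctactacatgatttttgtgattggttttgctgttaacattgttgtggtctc
It is shown as the probe that gave a smaller difference for the same gene. It stood at -2.68, -0.75 and -2.19 at 5 days and between -6.90 and -5.43 on all later arrays, none of which was well above background. Its bounds were at least 4.41-fold lower at 12 days and at least 6.63-fold lower at 60 days than at 5 days, with measured means of -1.87 ± 1.00, -6.04 ± 0.53 and -6.75 ± 0.18.

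Agtr1a, which encodes the AT1 receptor, had no age difference beyond its spread. Its probe stood at 2.97, 2.85 and 2.03 at 5 days, at 2.98, 2.67 and 2.40 at 12 days and at 2.40, 2.84 and 1.98 at 60 days, and the arrays of all 3 ages overlapped. The differences were 0.07 ± 0.38 between 12 and 5 days and -0.28 ± 0.38 between 60 and 12 days. On the scale of the spike-in controls the first became -1.25 and the latter turned to 0.68. An Agtr1a probe 964 bases away in rn4 was not well above background on any array, with levels between -6.98 and -4.37, although it also has 10 spots per array. The level of Agtr1a thus rests on a single probe, which the replicate 3 files call X62295.

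Ace was alike at 5 and 12 days and lower on 2 of the 3 arrays at 60 days. Its first probe (chr10:95381747-95381806) stood at 0.24, 0.49 and 0.90 at 5 days, at 0.73, 0.09 and 0.68 at 12 days and at 0.23, -1.85 and -1.75 at 60 days. The replicate 1 array at 60 days thus lay within the range of the 12-day arrays. The difference between 60 and 12 days was -1.62 ± 0.53, and it was -2.29 ± 0.37 without that array. Between 12 and 5 days it was -0.04 ± 0.53. The second Ace probe, 936 bases upstream in rn4 and in 10 spots, stood between -3.44 and -1.62 at 5 days, between -3.39 and -2.29 at 12 days and between -4.44 and -2.72 at 60 days, overlapping in every pair of ages.
Ace, second probe: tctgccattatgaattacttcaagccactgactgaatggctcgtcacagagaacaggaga
It is given because it read the same direction with a smaller size, -0.92 ± 0.56 between 60 and 12 days and -1.22 ± 0.56 between 60 and 5 days. Its repeated spots on an array differed by a median SD of 0.14, whereas the arrays of an age differed by SDs of 0.56 to 0.92.

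**Figure D2:**
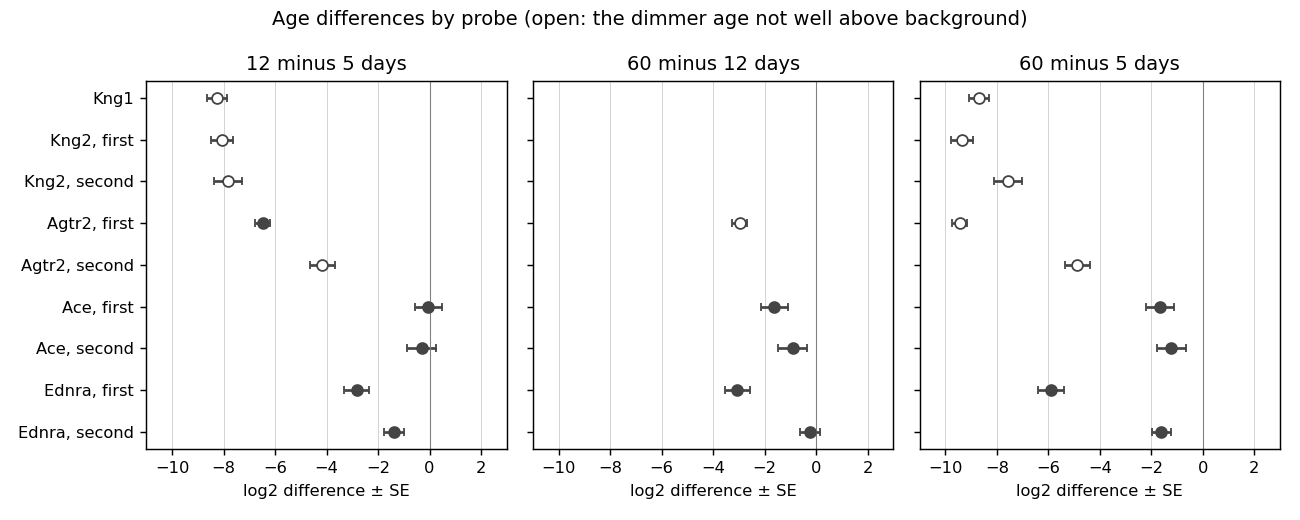
Log2 differences between ages, older minus younger, with the standard error of the model of all 9 arrays (horizontal axis). Drawn are Kng1 and each probe of Kng2, Agtr2, Ace and Ednra. Agtr1a, whose second probe lay at background at every age, is not drawn. The first probe is the brighter of a gene's probes, and open points have the dimmer age at background, so that their size depends on it. The probes of a gene point the same way in the contrasts drawn, but differ in size, as for Ednra with -3.07 against -0.24 between 60 and 12 days; pairs of ages that both lay at background are left out.

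Edn1, the endothelin-1 precursor, was the member with its peak at 12 days and an intermediate level at 60 days. It stood at -1.89, -1.75 and -3.06 at 5 days, at 1.91, 2.67 and 1.91 at 12 days and at 0.12, 0.08 and -0.13 at 60 days. The 3 ages did not overlap. The level at 12 days was 21.1-fold higher than at 5 days (difference 4.40 ± 0.41) and 4.41-fold higher than at 60 days (-2.14 ± 0.41). At 60 days it was still 4.78-fold above 5 days (2.26 ± 0.41). On the 3 slides the 12-day minus 5-day difference was 3.80, 4.42 and 4.97. The probe (chr17:28304023-28304082) has 10 spots per array, of which 7 to 10 were used. Their SD was 0.03 to 0.22, so spots of an array agreed more closely than the 5-day arrays, whose SD was 0.72.

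Ednra, the ETA receptor gene of contractile cells, was lower at each later age on its first probe. This probe is called RGD1559432 in the files, a predicted gene, and is taken for Ednra only because RefSeq lists that name among the synonyms of Ednra. It lies at chr19:32107666-32107725 and stood at 2.72, 4.51 and 4.16 at 5 days, at 0.40, 1.44 and 1.06 at 12 days and at -2.11, -2.45 and -1.74 at 60 days. The ages did not overlap, and the differences were -2.83 ± 0.49 between 12 and 5 days and -3.07 ± 0.49 between 60 and 12 days. From 5 to 60 days the level was 59.7-fold lower, a size that rests on this probe. The probe that the files call Ednra lies 2626 bases away at chr19:32103040-32105040 and has 10 spots per array.
Ednra, second probe: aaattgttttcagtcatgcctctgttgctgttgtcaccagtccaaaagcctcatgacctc
It is shown because it is the probe that carries the member's name in the files. It stood at -2.02, -1.64 and -1.86 at 5 days, at -3.21, -3.37 and -3.05 at 12 days and at -3.01, -4.24 and -3.12 at 60 days. By this probe Ednra was 2.59-fold lower at 12 than at 5 days (-1.37 ± 0.38), while 12 and 60 days overlapped (-0.24 ± 0.38). The lower level at 12 than at 5 days was thus read without overlap by both probes, and that at 60 than at 12 days by the RGD1559432 probe alone.

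Ednrb, the ETB receptor gene, was highest at 12 days and spread widely at 60 days.
Ednrb: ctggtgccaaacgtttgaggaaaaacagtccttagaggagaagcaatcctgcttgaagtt
This probe (chr15:87893634-87893693) is shown because its 60-day arrays disagreed more than those of any other member. It stood at -1.44, -0.49 and -1.34 at 5 days and at 0.80, 1.06 and 0.21 at 12 days, with no overlap and a difference of 1.78 ± 0.82. At 60 days it stood at -0.17, -2.94 and -4.23, the last not well above background, with an SD of 2.07. All 3 lay below the 12-day arrays, and on the 3 slides the 60-day minus 12-day difference was -0.97, -4.00 and -4.44. Against 5 days the 60-day arrays overlapped, and the slides gave 1.27, -2.45 and -2.89. Without the replicate 1 array at 60 days, the mean difference from 5 days was -2.49 ± 0.50 in place of -1.36 ± 0.82, and that from 12 days was -4.27 ± 0.50 in place of -3.14 ± 0.82. The 9 or 10 spots used on an array, after outlier spots were left out, had a median SD of 0.07 and at most 0.26.

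Nppc, the precursor of C-type natriuretic peptide, had a 12-day peak as Edn1 had, but its level at 60 days was the lowest of the 3 ages. It stood at -2.63, -2.63 and -3.01 at 5 days, at -0.10, 0.34 and -0.16 at 12 days and at -3.57, -4.29 and -5.06 at 60 days, where 2 of 3 arrays were well above background. The ages did not overlap. The level at 12 days was 6.88-fold higher than at 5 days (2.78 ± 0.40) and 20.1-fold higher than at 60 days (-4.33 ± 0.40). Its receptor gene Npr2 was highest at 5 days instead. Npr2 stood at 2.33, 2.19 and 2.62 at 5 days, at 0.55, 0.14 and 0.72 at 12 days and at -2.33, -3.38 and -3.76 at 60 days, again without overlap. It was 3.75-fold lower at 12 than at 5 days (-1.91 ± 0.40), 12.4-fold lower at 60 than at 12 days (-3.63 ± 0.40) and 46.4-fold lower over the whole interval. Ligand and receptor of this pair were thus highest at different ages, as were Edn1 and Ednra, while Edn1 and its other receptor gene Ednrb were both highest at 12 days. The probes lie at chr9:85434422-85434481 for Nppc and chr5:60127743-60127802 for Npr2.

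**Figure D3:**
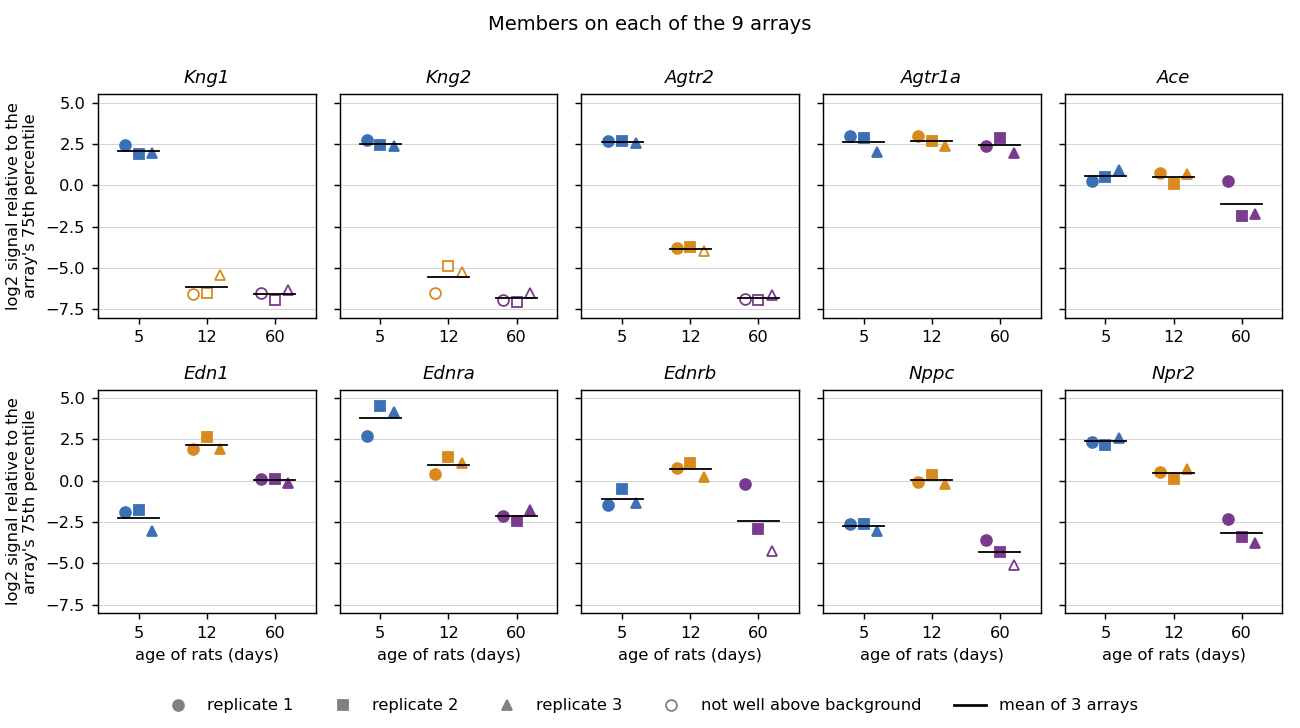
Log2 signal minus the array's 75th percentile (vertical axis) against age for the 10 members, by the brightest probe of each, with a point for each array (shape gives the replicate, open points were not well above background) and a bar at the mean of 3 arrays. Kng1, Kng2 and Agtr2 drop after 5 days, Edn1, Ednrb and Nppc peak at 12 days, Ednra and Npr2 are lower at each later age, and Agtr1a stays between 1.98 and 2.98.

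In the limma fit across 22453 genes, 7 of the 10 members were called between 12 and 5 days at an adjusted p under 0.05, against 12.5% of all genes. Edn1 and Nppc were higher (6.14% of genes were called higher) and Kng1, Kng2, Agtr2, Ednra and Npr2 lower (6.33%). Between 60 and 12 days 7 members were called, all lower, namely Ace, Agtr2, Edn1, Ednra, Ednrb, Nppc and Npr2, against 25.3% of genes in either direction and 13.1% called lower. Between 60 and 5 days 8 were called, against 35.4%. Of these Edn1 was higher (17.3% of genes) and Kng1, Kng2, Agtr2, Ace, Ednra, Nppc and Npr2 were lower (18.1%). Since the members were chosen for such differences, nothing is read from these counts. The arrays of 2 ages did not overlap for 8, 6 and 8 members in the 3 contrasts in turn, against 28.6%, 40.7% and 47.4% of all genes. The count of 7 between 60 and 12 days was 4 without replicate 2, where Ace, Edn1 and Ednrb were not called. In that contrast the Ace call was lost on leaving out any single array except the replicate 1 array at 60 days, and the Ednrb call without the replicate 1 or 2 array at 12 days or the replicate 2 array at 60 days. Between 60 and 5 days the Ace call was lost without any 5-day array or the replicate 2 or 3 array at 60 days, and the Nppc call without replicate 2 or 3. Between 12 and 5 days the Npr2 call was lost without replicate 2 or 3 and that of Ednra without replicate 3. The contrasts share arrays and are not independent of each other.

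The size of the differences depended on how dim signals were treated. The normexp values of the kininogens and Agtr2 are given above. With normexp in place of Agilent's processed signal, the 12-day minus 5-day difference of Edn1 was 2.50 and that of Nppc 1.18, and the 60-day minus 12-day differences were -1.65 for Nppc, -1.49 for Npr2, -1.76 for Ednra, -1.32 for Ednrb and -0.73 for Ace. By that correction no member was called in either of these contrasts with the 75th percentile as the scale (limma, with 6 and 5 members at an unadjusted p under 0.05), and with quantile scaling, added after seeing the data, 7 and 5 were. On the scale of the spike-in controls, the median of all genes shifted by -1.32 between 12 and 5 days and by 0.96 between 60 and 12 days. Relative to the arrays' synthetic RNA, Edn1 was then 3.08, Nppc 1.46 and Ednrb 0.46 higher at 12 than at 5 days, and Edn1 at 60 days was -1.18 from its 12-day level. The SE of each of these differences was 0.87. Between 12 and 5 days 1 member was called higher and 5 lower, and between 60 and 12 days 2 were called, both lower. On this scale 90 genes were called higher and 2198 lower between 12 and 5 days, against 1379 and 1422, and 2614 higher and 381 lower between 60 and 12 days, against 2751 and 2931. Every called member difference kept its direction under each of these settings.

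Of the 62 other genes of the 4 systems and of their receptor coupling, 43 were measured. Between 12 and 5 days 6 were called, 1 higher and 5 lower (14.0% of the measured genes, against 12.5% of all genes, with a median difference of 0.25 against 0.05). Between 60 and 12 days 15 were called, 7 higher and 8 lower (34.9% against 25.3%, median -0.01 against -0.16), and between 60 and 5 days 17, with 8 higher and 9 lower (39.5% against 35.4%, median -0.17 against -0.09). The counts were 2 between 12 and 5 days and 5 between 60 and 12 days without replicate 2, 3 between 12 and 5 days without replicate 1 or without the replicate 2 array at 12 days, and 11 between 60 and 5 days without replicate 2 or 3. On the spike-in scale 9 were called between 60 and 12 days, 8 higher and 1 lower. Of the source proteins and kinin receptors, Agt (angiotensinogen), Klk1, Klkb1 and Bdkrb1 were not well above background on 2 arrays of any age. Bdkrb2, the constitutive bradykinin receptor, was measured and not called, with differences of -0.03 ± 0.42 between 12 and 5 days and -0.14 ± 0.42 between 60 and 12 days, while its dimmer probe gave -2.01 and 0.42.

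In the angiotensin group, 1 of 11 measured genes was called between 12 and 5 days (9.09%, against 12.5% of all genes) and 3 between 60 and 12 days (27.3%, against 25.3%). Anpep, an aminopeptidase that trims angiotensin III, fell by 3.37 ± 0.49 between 5 and 12 days (adjusted p = 0.0013), though its other probe gave a difference of -0.15. Mas1, the receptor of angiotensin 1-7, rose between 12 and 60 days (2.55 ± 0.55, adjusted p = 0.0061). It was at background on all 5-day and 12-day arrays, with means of -6.19 ± 0.15 and -5.07 ± 0.56 (SD, n = 3), and stood at -1.12, -3.32 and -3.13 at 60 days, at least 2.80-fold higher than at 12 days. With normexp its difference between 60 and 12 days was 0.49, smaller than that bound, and was not called. Mme, neprilysin, which degrades natriuretic peptides, bradykinin and endothelin, averaged 0.63 ± 0.16 and 0.58 ± 0.25 at 5 and 12 days and rose to 3.52 ± 0.63 at 60 days (2.94 ± 0.37, adjusted p = 0.000212). Agtrap, which binds the AT1 receptor, rose between 12 and 60 days (1.70 ± 0.36, adjusted p = 0.0053), a call lost without replicate 2 (0.0847). Prcp, a carboxypeptidase of angiotensin II, fell by 1.34 ± 0.46 between 5 and 60 days (adjusted p = 0.0428), but the call failed on leaving out any of 7 arrays, all except the replicate 1 array at 5 days and the replicate 2 array at 12 days (up to 0.164).

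In the kinin group 1 of 6 measured genes was called between 12 and 5 days (16.7%, against 12.5% of all genes) and 2 between 60 and 12 days (33.3%, against 25.3%). Serping1 had the largest difference among them. It encodes the C1 inhibitor, which restrains plasma kallikrein, and stood at 6.94, 6.48 and 6.37 at 5 days, at 1.79, 2.14 and 2.14 at 12 days and at 2.04, 1.23 and 0.73 at 60 days. It fell by 4.57 ± 0.38 between 5 and 12 days (adjusted p = 5.73e-05), and its other probe read -3.04. Cpm, a carboxypeptidase that acts on kinins, fell by 1.96 ± 0.46 between 12 and 60 days (adjusted p = 0.0098) to background, at least 2.08-fold. That call was lost without replicate 2 (0.0692) or 3 (0.0772). Xpnpep2, an aminopeptidase that degrades bradykinin, rose from background between 12 and 60 days (1.97 ± 0.54, adjusted p = 0.0214), at least 1.29-fold. That call was lost without the replicate 2 or 3 array at 12 days or the replicate 1 or 2 array at 60 days (up to 0.0775), and the call between 5 and 60 days (1.94 ± 0.54, adjusted p = 0.0168) without the replicate 2 or 3 array at 5 days or the replicate 2 array at 60 days (up to 0.0678). With normexp the differences between 60 and 12 days were -0.24 for Cpm and 0.16 for Xpnpep2, smaller than their bounds, and neither was called.

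Of the 5 endothelin genes, 3 were measured, and none of these was called between 12 and 5 days in limma, with 2 at an unadjusted p under 0.05. Ece1, the enzyme that releases active endothelin, was bright at every age, with means of 5.33 ± 0.40, 6.15 ± 0.05 and 6.53 ± 0.33 (SD, n = 3). It rose between 5 and 60 days by 1.20 ± 0.33 (SE, adjusted p = 0.0159), a call lost without the replicate 2 array at 5 days (0.0516) or 3 (0.0599) and on the scale of the spike-in controls (0.84, adjusted p = 0.61). Its 2 dimmer probes read differences of 1.15 and 1.77. Ecel1, a relative of the converting enzymes, fell by 1.76 ± 0.56 between 12 and 60 days (adjusted p = 0.0408) to background, and the call failed without any 12-day array or without the replicate 2 or 3 array at 60 days (up to 0.14). Edn3 and Ece2 were not measured.

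In the natriuretic group 1 of 9 measured genes was called between 12 and 5 days (11.1%, against 12.5% of all genes) and 6 between 60 and 12 days (66.7%, against 25.3%). Of these 6, Gucy1b1 and Nppa were still called without replicate 2. The heart peptides moved apart. Nppb, the B-type precursor, rose between 12 and 60 days by 2.24 ± 0.44 (adjusted p = 0.0035, and 0.074 without replicate 2), with 0.56, 0.71 and 0.63 at 60 days against -2.46, -1.79 and -0.56 at 12 days. Nppa, the A-type precursor, fell by 2.71 ± 0.46 (adjusted p = 0.0014), from -2.51, -2.22 and -3.03 to -4.25, -5.58 and -6.06, of which 1 array was well above background. Its call between 5 and 60 days (-1.61 ± 0.46, adjusted p = 0.0187) was lost without the replicate 2 array at 5 days or the replicate 2 or 3 array at 60 days (up to 0.0753). Npr1, the receptor of both, averaged 2.44 ± 0.39, 2.74 ± 0.42 and 3.44 ± 0.48 and was not called between 5 and 60 days (1.00 ± 0.38, adjusted p = 0.0659), but it was with the slide as a block (0.0391). Npr3, the clearance receptor, peaked at 12 days. It fell by 1.44 ± 0.38 between 12 and 60 days (adjusted p = 0.0171), a call lost without the replicate 2 array of 12 days (0.0649) or 60 days (0.0612). Its difference between 12 and 5 days, 1.27 ± 0.38 (adjusted p = 0.053), was called with the slide as a block (0.0324).

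Genes that make or sense cyclic GMP moved in both directions. Gucy1b1, the beta subunit of the soluble guanylyl cyclase, rose between 12 and 60 days by 2.24 ± 0.33 (adjusted p = 0.000608), from a mean of -1.26 ± 0.33 to 0.98 ± 0.41 (SD, n = 3). Gucy1a1, the alpha subunit, fell by 2.47 ± 0.37 between 5 and 12 days (adjusted p = 0.0016, and 0.0573 without replicate 2) and rose again between 12 and 60 days by 1.68 ± 0.37 (adjusted p = 0.007, and 0.116 without replicate 2 or 0.0793 without 3). Pcsk6, a convertase that activates the natriuretic peptide protease corin, fell by 3.52 ± 0.62 between 12 and 60 days (adjusted p = 0.0018, and 0.0521 without replicate 2). Prkg1, the cyclic GMP-dependent kinase, rose between 5 and 60 days by 1.57 ± 0.45 (adjusted p = 0.0179), a call lost without the replicate 3 array at 5 days (0.0656) or the replicate 2 array at 60 days (0.0801), and its dimmer probe read -0.73.

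Of 14 measured coupling genes, 3 were called between 12 and 5 days and 3 between 60 and 12 days (21.4% each, against 12.5% and 25.3% of all genes). The kinase Grk5, which desensitises receptors, fell by 1.71 ± 0.31 between 12 and 60 days (adjusted p = 0.0022, and 0.0616 without replicate 2), and Rgs4, an inhibitor of Gq signalling, fell by 2.97 ± 0.42 (adjusted p = 0.000419). Plcb1, the phospholipase that Gq activates, rose between 5 and 60 days by 4.04 ± 0.55 (adjusted p = 0.000193). Of the 5-day arrays 1 of 3 read it well above background, so this size rests on background levels there, and its dimmer probe read 4.56. Its call between 5 and 12 days (2.45 ± 0.55, adjusted p = 0.0147) was lost without the replicate 2 array at 12 days (0.0531), without replicate 1 (0.0836) or 2 (0.0934), and on the spike-in scale (0.321). Plcb3 fell between 5 and 12 days (-1.36 ± 0.35, adjusted p = 0.0284), as did Grk5 (-1.06 ± 0.31, adjusted p = 0.0494). The Grk5 call was lost without any of the 9 arrays (0.0523 to 0.178), and that of Plcb3 without the replicate 1 or 3 array at 5 days or the replicate 2 or 3 array at 12 days (up to 0.1). Grk2 between 60 and 12 days (-0.96 ± 0.30, adjusted p = 0.0374) and Plcb3 between 60 and 5 days (-1.02 ± 0.35, adjusted p = 0.0446) each lost their call without 7 of the 9 arrays. For Grk2 the exceptions were the 5-day arrays of replicates 1 and 3, and for Plcb3 the replicate 2 array at 5 days and the replicate 1 array at 12 days. With the spike-in scale the differences of Rgs4 (-2.01, adjusted p = 0.116), Grk5 (-0.75, adjusted p = 0.646) and Grk2 (-0.01, adjusted p = 0.998) between 60 and 12 days were not called, nor were those of Nppa (-1.75, adjusted p = 0.193), Npr3 (-0.48, adjusted p = 0.785), Cpm (adjusted p = 0.528) and Ecel1 (-0.80, adjusted p = 0.62). Between 60 and 5 days that scale also ended the calls of Prcp, Xpnpep2, Nppa, Prkg1 and Plcb3 (adjusted p = 0.107 to 0.408). Between 12 and 5 days it turned the differences of Ece1, Npr1 and Npr3 to -0.50, -1.02 and -0.05, and between 60 and 12 days that of Bdkrb2 to 0.82.

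**Figure D4:**
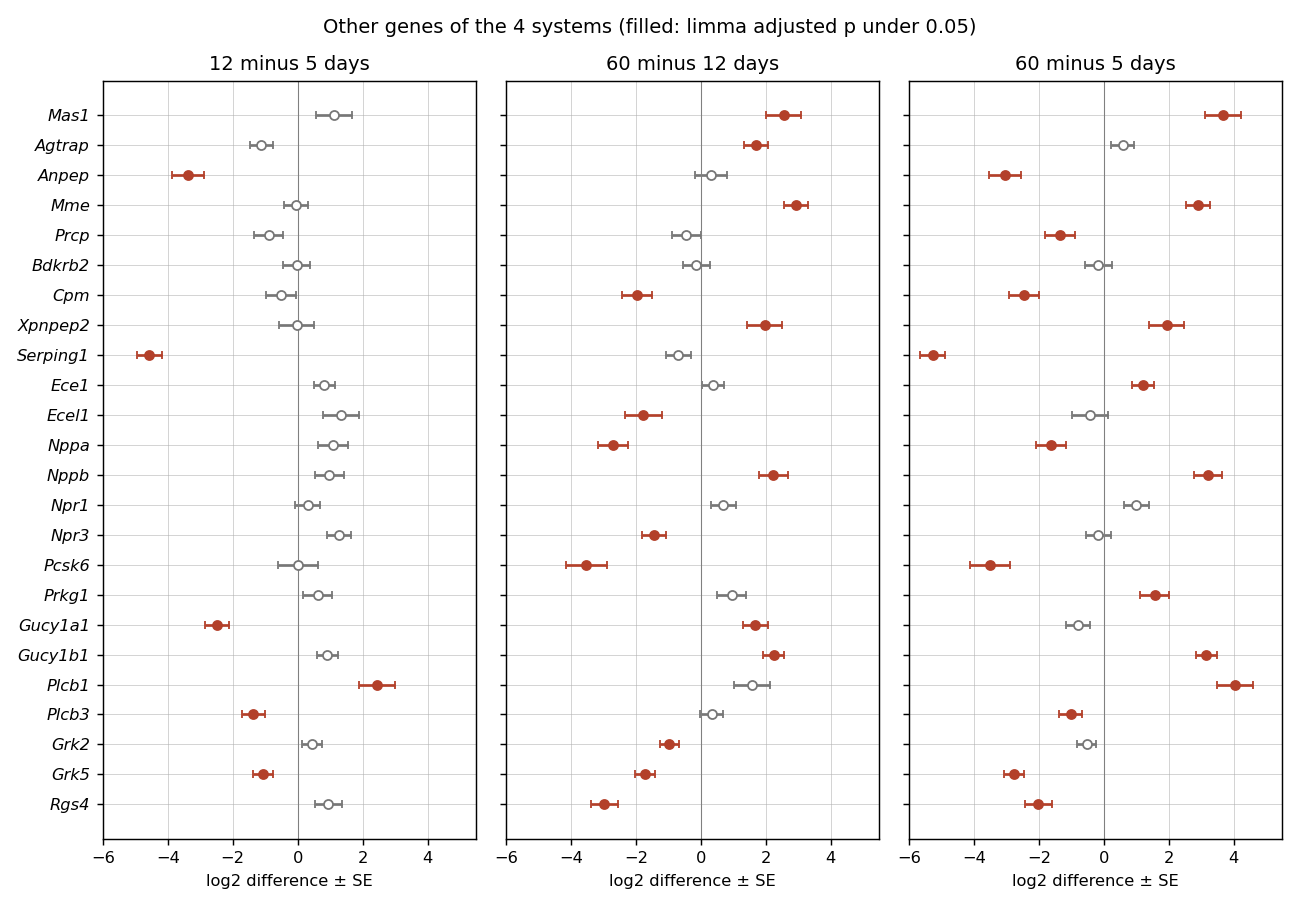
Log2 differences between ages, older minus younger, with standard errors (horizontal axis), for the named genes of the 4 systems other than the members and for the named coupling genes, in 3 panels by contrast; filled points passed limma at an adjusted p under 0.05. Serping1 and Anpep lie far left in the first panel, at -4.57 and -3.37, and Mas1, Mme, Nppb and Gucy1b1 lie right of 2 in the middle panel.

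Markers of several cell types also differed between the ages. All 13 Sertoli markers were measured, and 9 rose and none fell between 5 and 12 days in limma. Their summed linear level was 43.2 to 47.1 at 5 days, 205 to 230 at 12 days and 298 to 323 at 60 days, in units of the 75th percentile. The list for peritubular myoid cells and fibroblasts, 12 genes that were all measured, summed to 581 to 1065 at 5 days, 345 to 476 at 12 days and 44.8 to 234 at 60 days, with 4 called lower between 5 and 12 days and 8 between 12 and 60 days, and none was at background on all arrays of any age. The 8 measured markers of rete testis and epididymal epithelium summed to 70.2 to 137 at 5 days, 13.9 to 15.6 at 12 days and 9.39 to 47.7 at 60 days, with 6 called lower between 5 and 12 days. Of 11 macrophage markers 9 were measured, and 7 of these fell between 5 and 12 days (summed level 6.79 to 11.7, then 2.29 to 2.68). Endothelial markers, of a cell type that makes Edn1, summed to 12.0 to 13.9, 10.1 to 17.0 and 3.60 to 7.04 at the 3 ages, and of 13 of them Pecam1, Plvap, Tek and Tie1 were not measured. Of the 9 measured, 4 were called lower and 0 higher between 5 and 12 days, although the sums of these ages overlapped. Between 12 and 60 days 3 were called lower and 1 higher. At 12 days 2 of the 9 measured markers, Cldn5 and Emcn, lay at background on all 3 arrays, and at 60 days Cdh5 and Flt1 did. Spermatocyte markers summed to 0.42 to 0.66 at 5 days, 13.2 to 17.6 at 12 days and 82.0 to 159 at 60 days. Of these 8 markers 7 were called higher at 12 than at 5 days. At 60 days spermatid markers, among cells that make a testis form of Ace, summed to 7.52 to 13.9. The part of these cells in the levels of the members was not tested.

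The replicate 1 array at 60 days stood apart in these lists. Its summed level of peritubular and fibroblast markers was 234, against 96.3 and 44.8 on the other 60-day arrays, and that of rete and epididymal markers was 47.7, against 9.39 and 9.40. Spermatocyte and spermatid markers were also highest there, at 159 against 82.0 and 110 and at 13.9 against 8.20 and 7.52. On the same array Ace, Ednrb, Nppc and Npr2 had their highest 60-day level, as did Edn1 by a narrow margin (0.12, against 0.08 and -0.13). The probes of Ednra differed in this. The one that the files call Ednra was highest there (-3.01, against -4.24 and -3.12), and the RGD1559432 probe, at -2.11 against -2.45 and -1.74, was not. Without it, the 60-day differences of Ednrb grew as given above, and 9 members in place of 8 were called between 60 and 5 days. Leydig markers, by contrast, were lowest on that array among the 60-day arrays (11.5, against 13.1 and 15.6). Their sums were 18.6 to 31.2 at 5 days and 5.53 to 9.40 at 12 days, with 3 of 6 measured called lower and 1 higher between these ages.

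For each member whose age means spanned at least 2 log2 units, the 3 genes nearest in pattern were taken from 2911 genes with a current symbol and the same span. Likeness was the root mean square difference over the 9 arrays, each gene centred on its own mean. Kng1, Kng2 and Agtr2 shared Fmo2, a monooxygenase, and Lum, a collagen-binding proteoglycan, among their nearest genes, at 0.85 to 1.14. C7, a complement component, was nearest to Kng1 (0.97) and Spon1 was among those nearest to Agtr2 (0.87). Fmo2 averaged 2.83 at 5 days, -3.54 at 12 days and -5.07 at 60 days. Npr2 had the closest neighbours, Acy3 (0.28), Igf2bp2 (0.31) and Selenom (0.32). Those of Ednra were Igfbp6, Unc5c and Fat4 (0.50 to 0.51), those of Edn1 were Rpl3l, Pnoc and Tmem74 (0.53 to 0.68), those of Nppc were Gldn, Sstr1 and Casq2 (0.49 to 0.53), and those of Ednrb were Slc16a3, Slc38a1 and Nap1l5 (0.44 to 0.55). Edn1 and Nppc, both highest at 12 days, had no neighbour in common. These lists describe 9 arrays, in which age accounts for most of the pattern.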

How the data were processed

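Total RNA was labelled with Cy3 after oligo-dT priming, which favours the 3' end of transcripts, and hybridised to Agilent 4x44k rat arrays, per the labels. Per the file headers, replicate 1 was read with Feature Extraction 9.5.3.1 and replicates 2 and 3 with 10.5.1.1. The scanner model also differed, G2505B for replicate 1 and G2505C for replicates 2 and 3. Per the same headers, the intensity values in the array files the authors deposited are after background subtraction and detrending, not scaled between arrays. The authors' deposited log2 table, by contrast, holds values scaled array by array. It equals the log2 processed signal minus a constant per array within 0.01 for 99.8% of probes. That constant lay within 0.0222 of the array's log2 75th percentile.

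Here, outlier spots were left out, spots of a probe averaged as log2, and 75th percentiles (149 to 435) subtracted. Names came from RefSeq accessions (11103 probes), symbols (5612) or synonyms (3745); 20552 kept the file's name and 254 probes lacked a usable spot on some array. A probe was kept if 2 or more of the 3 arrays of some age were well above background (26599), and the brightest stood for each gene (22453 genes). limma 3.58.1 (R 4.3.3) fitted age means to 9 arrays, with Benjamini-Hochberg adjustment over all genes. The script was tested on simulated data. Tables and plots used Python 3.11.15, pandas 2.3.3, numpy 2.4.6 and matplotlib 3.10.9.

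Between 49.1% and 63.0% of probes lay well above background, 29 to 140 were saturated (no member), and the number of arrays limits precision. Replicate numbers are slides. Deviations from age means correlated at 0.18 to 0.60 in all pairs of arrays of a number, so the numbers pair the arrays. The SEs and adjusted p come from a fit that leaves this pairing out, except where the slide is named as a block. Position on the slide and age cannot be told apart, since every slide held the ages in the same places.

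The members, the lists and the rules were chosen with earlier results of these data known. Named from the list of 62 genes were, in each contrast, every called gene of the 4 systems, the 4 called coupling genes of largest change, and Agt, Bdkrb2, Ece1, Npr1 and Npr3 whatever their change; a further gene of the rule is not reported here. The 10 marker lists covered Sertoli, peritubular, endothelial, Leydig, macrophage, rete and epididymal, mesothelial, spermatogonial, spermatocyte and spermatid genes. Summed levels of mesothelial markers were 4.31 to 7.31, 2.36 to 4.18 and 3.17 to 5.15 at the 3 ages, and of spermatogonial markers 8.47 to 11.6, 8.66 to 13.4 and 48.9 to 68.6. Alternatives were another scale or background correction, other filters, every probe, 6 arrays alone, the slide as a block, and leaving out arrays.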

Additional observations from a re-analysis of the deposited data

How the results depend on the processing

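With the slide (replicate number) as a block, the counts of all genes called were 3978, 7683 and 9980 for 12 against 5, 60 against 12 and 60 against 5 days, in place of 2801, 5682 and 7943, and the members called were 7, 8 and 8. Listed genes called with the block were 8, 18 and 19, in place of 6, 15 and 17. Of listed genes in the contrasts for which they were named, only Npr1 and Npr3 changed their call, as given above. The other new calls fell on listed genes not named in that contrast. Among the members the block changed only the call of Kng2 between 60 and 12 days, where both ages lay at background. Median, quantile and deposited-table scaling, normexp with quantile scaling (added after seeing the data), no filter, every probe and the 6 arrays of both ages alone kept all 9 counts (all genes, list of 62, members) within 1.5 times. Normexp with the 75th percentile gave 45, 148 and 905 genes, 1, 0 and 2 listed genes (limma, with 3, 4 and 7 at an unadjusted p under 0.05) and 0, 0 and 5 members. With the spike-in scale, all genes called were 2995 between 60 and 12 days and 4086 between 60 and 5 days (1630 higher and 2456 lower, in place of 3885 and 4058), listed genes 9 and 11, and members 2 and 5. Keeping just the probes that every array read well above background, which removes the genes that reached background, 1528, 3244 and 4476 genes, 9 listed genes between 60 and 12 days and 3, 4 and 4 members were called. The only members left in that setting were Agtr1a, Ace, Edn1, Ednra and Npr2, so these counts are not out of all members. Fewer listed genes and fewer genes in all were tested there as well. Leaving out a replicate number or a single array gave 849 to 3077, 2768 to 5698 and 4910 to 7995 genes, 2 to 6, 5 to 16 and 11 to 17 listed genes, and 5 to 8, 4 to 8 and 6 to 9 members. Without replicate 2 all genes called were 849, 2768 and 4910, without replicate 1 they were 1553 between 12 and 5 days, and without replicate 3 they were 1539 between 12 and 5 days and 3562 between 60 and 12 days. The cause of these changes was not tested. Signals near background limit the differences of the kininogens, Agtr2 at 60 days, Mas1, Cpm, Xpnpep2, Ecel1, Nppa at 60 days and Plcb1 at 5 days, among others.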
